A study of Mus musculus with 20 samples.

Results

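The pancreas of newborn mice that lack inceptor was compared with that of wild-type newborns on the day of birth, postnatal day 0 (P0). The comparison uses 11 of the 20 arrays of the study, the 6 titled P0 knockout and the 5 titled P0 wild type, and every gene measured by a probe set with exactly 1 gene symbol. The knockouts carry the genotype Iir -/- and the controls Iir +/+. Animals of both groups were C57BL/6J, the labels give their sex as not determined, and the pups were starved for 5 h before the pancreas was taken. RNA of the whole organ was amplified and hybridised to an Affymetrix transcript array. The other 9 arrays, 5 knockout and 4 wild type at embryonic day 18.5 (E18.5), serve here for the spread between arrays and for the comparison between ages. For the embryos it was the mother that was starved, for 2 h. The labels do not say which part of the gene is missing, in which cells, or whether each array is a separate animal or litter. The p-values therefore rest on the spread between arrays, which may be partly technical.

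Inceptor is the product of Elapor1, called Iir in the labels. It is a transmembrane protein that binds the insulin and insulin-like growth factor 1 (IGF1) receptors and brings them to clathrin-coated pits, and its loss in beta cells is known to strengthen insulin signalling. In the pancreas, beta cells make insulin and acinar cells make digestive enzymes, and acinar cells supply most of the RNA of the organ. When insulin signalling is weak, FOXO transcription factors enter the nucleus and turn on genes of starvation and catabolism; when it is strong, AKT keeps them out.

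The values are log2 signals, so a difference of 1 is a doubling, and every difference below is knockout minus wild type. Of 30063 genes with a named probe set, 17993 exceeded the median of their array on 4 or more arrays and were tested with limma. The 11 arrays were alike overall: medians lay between 4.81 and 4.93 and the lowest correlation between any of them was 0.984. The limma p-values, which are two-sided, were adjusted over these 17993 genes, and a gene was called at an adjusted p under 0.05. The table has a ceiling of 19.932, which 261 to 277 probe sets reached on each P0 array. A difference between genes at that ceiling cannot be seen. Trypsinogens, carboxypeptidases and other acinar enzymes were at or near it and Ins2, an insulin gene, sat at 18.58 on 10 of 11 arrays, so the tissue was pancreas as labelled. Markers of neighbouring organs varied: the skeletal muscle mean was 8.38 on knockout 4 against at most 6.45 elsewhere, and the intestinal mean 7.28 on knockout 6 against at most 6.47. Y-linked genes averaged 7.76 on knockout 4 and 7.99 on wild type 4, while no other P0 array exceeded 4.44. By these genes, knockout 4 and wild type 4 were male and the other P0 arrays female.

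Elapor1 fell 45.1-fold in the knockouts. Its signal was 12.01, 11.72, 11.07, 11.39 and 11.52 in wild types 1 to 5. In the 6 knockouts it lay between 5.58 and 6.38, with a median of 6.05. The groups were far apart and the difference was -5.49 ± 0.18 (SE; limma adjusted p = 8.10e-13). In all, 2 of 17993 genes were called, 0.0111% of those tested, and both were lower in knockouts. No gene was called higher by limma (0%), while 907 genes (5.04%) were higher and 669 (3.72%) lower at an unadjusted p under 0.05, together 8.76%. The number called was 45 without knockout 1, 40 without wild type 1 and 11 without wild type 3, against 1 to 3 without any other array. In the first and the second case 33 of the genes were a set with identical values, described below. With genes of identical values counted once, the number was 1 without knockout 1, 1 without wild type 1, 12 without wild type 3, 5 without knockout 5 and 1 or 2 without any other array.

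The second gene called was Man1a2, which encodes a Golgi mannosidase that trims N-linked sugar chains on secreted and membrane proteins. It lies on chromosome 3, as Elapor1 does. Its signal was 9.51, 8.95, 9.14, 8.0 and 9.22 in wild types 1 to 5, and 7.12, 6.78, 7.19, 6.81, 8.39 and 7.22 in knockouts 1 to 6. Knockout 5 stood apart from the other knockouts and above wild type 4, so the groups overlapped. The difference was -1.71 ± 0.25 (limma adjusted p = 0.0251). Knockout 5 was no exception for Elapor1, where it had the lowest signal of all, 5.58. Without knockout 5 the Man1a2 difference was -1.94 (limma adjusted p = 0.000156). Without knockout 2, 3, 4 or 6, or wild type 2 or 5, it was no longer called (adjusted p of 0.0705 to 0.102), nor was it with array weights, the 11 P0 arrays fitted alone, the replicate number as a block or the adjustments for organ markers (adjusted p of 0.0631 to 0.691). With genes of identical values counted once, Man1a2 was also not called without knockout 1 (limma adjusted p = 0.0669) or without wild type 1 (0.0959). In all settings tried the difference stayed between -1.95 and -1.43. At E18.5 all 5 knockouts had Man1a2 between 6.74 and 6.93 and all 4 wild types between 8.96 and 9.17.

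**Figure D1:**
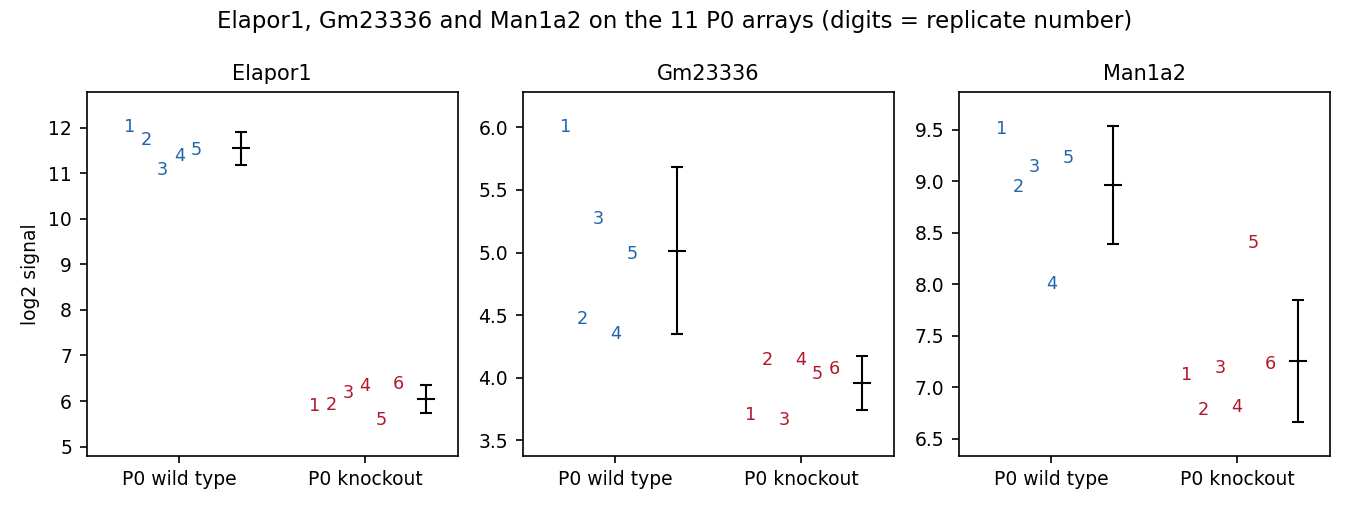
Signal (log2) of Elapor1, Gm23336 and Man1a2 on each P0 array. Blue digits are wild-type arrays, red digits knockout arrays, numbered by replicate; the bar beside each group is the mean ± SD. The groups are separate for Elapor1 and Gm23336, while for Man1a2 knockout 5 (8.39) lies above wild type 4 (8.0).

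Other probes at and around the Elapor1 locus were examined next. Gm23336 is a 123-base small nuclear RNA gene that lies inside the span of Elapor1 in the mouse assembly GRCm38.p6. Its signal was 6.00, 4.47, 5.27, 4.35 and 4.99 in wild types and 3.66 to 4.14 (median 4.05) in knockouts, without overlap but near the array medians. The difference was -1.06 ± 0.25 at P0 (adjusted p = 0.152, not called) and -1.53 ± 0.28 at E18.5. Around Elapor1 and Man1a2, the 50 tested genes on either side of each gave 184 genes besides these, of which 14 (7.61%) had an unadjusted p under 0.05, against 8.76% of all tested genes. Their median difference was 0.025. Of the 84 tested genes between Man1a2 and Elapor1, 3 had such a p. Besides Elapor1, Man1a2 and Gm23336, the genes with an unadjusted p under 0.01 in this stretch were the zinc transporter Slc30a7 (-0.36 ± 0.12), the microRNA gene Mir669n (-0.63 ± 0.20) and Lrrc39 (-0.26 ± 0.09), none of them called (adjusted p of 0.43 to 0.465). At E18.5 these stood at 0.07, -0.02 and 0.27. A probe set without a gene symbol, of chromosome 3 by its name and not among the tested genes, was also lower in knockouts. It stood at -2.94 at P0 and -3.22 at E18.5, and its position relative to Elapor1 and Man1a2 was not available.

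At an adjusted p under 0.10, 43 genes (0.239%) passed, 34 higher (0.189%) and 9 lower (0.05%). Of the 34, 33 are small nucleolar RNA genes with the same values on every array, so they are a single measurement. That measurement had a mean of 5.07 in knockouts and 4.03 in wild types (1.04 ± 0.23, adjusted p = 0.0952), near or below the array medians. Knockout 1 (4.52) lay below wild type 1 (4.76). The adjusted p of the others rests on these copies: with genes of identical values counted once, only Elapor1 and Man1a2 passed 0.10, and the other 9 measurements had an adjusted p of 0.107 (Pla2g1b) to 0.298. After Elapor1, the largest difference among the 43 genes was that of Gm4744, a pseudogene also listed as Tryx4 and named after its value was seen (-4.17 ± 0.87, adjusted p = 0.0952). The genes described from here on did not pass 0.05 and are given by their values. Counts within gene lists are to be read beside the shares of all tested genes. Of these, 51.5% were above 0, and 5.04% were higher and 3.72% lower at an unadjusted p under 0.05.

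Besides Elapor1, Man1a2 and Gm4744, the lower genes were Pla2g1b, Reg2, Slc7a8, Slc11a2, Cpd and Angptl4. Pla2g1b, the pancreatic phospholipase A2 that acinar cells release into the gut, had signals of 16.09, 16.71, 14.70, 16.73 and 16.41 in wild types. In knockouts it ranged from 13.97 to 14.94 with a median of 14.15. Wild type 3 lay within the knockout range and the other 4 wild types lay above every knockout. The difference was -1.79 ± 0.32 (adjusted p = 0.0952), and without wild type 3 it was -2.15 (adjusted p = 0.000909). Of 26 alternatives that each changed 1 choice, Pla2g1b passed 0.05 in 3, without wild type 3, knockout 1 or wild type 1 (adjusted p of 0.000909 to 0.691). With genes of identical values counted once, Pla2g1b passed 0.05 without wild type 3 or knockout 5, and not without knockout 1 or wild type 1.

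Slc7a8, an amino acid exchanger of the plasma membrane, followed the same pattern. It was 9.67, 9.99, 8.52, 10.19 and 9.97 in wild types and 7.45 to 8.86 (median 8.57) in knockouts, with wild type 3 again among the knockouts (-1.33 ± 0.29, adjusted p = 0.0952). Angptl4, a secreted inhibitor of lipoprotein lipase, was 5.54, 5.58, 5.07, 6.18 and 6.07 in wild types and 4.74 to 5.12 (median 4.86) in knockouts. Its knockout signal is at the array median, so the size of the difference of -0.79 ± 0.14 (adjusted p = 0.0952) is uncertain. Wild type 3 was the only wild type inside the knockout range here too. Without that array Slc7a8 stood at -1.61 (adjusted p = 0.0138) and Angptl4 at -0.94 (adjusted p = 0.00145). Slc7a8 passed 0.05 in 1 of 26 alternatives (adjusted p of 0.0138 to 0.691) and Angptl4 in 3 of 25, those of Pla2g1b (0.00145 to 0.691). With genes of identical values counted once, Angptl4 passed 0.05 without wild type 3, and not without knockout 1 or wild type 1.

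For Cpd and Slc11a2 the groups did not overlap. Cpd, a carboxypeptidase of the trans-Golgi network, was 9.49, 9.52, 9.34, 9.32 and 9.41 in wild types and 8.91 to 9.23 (median 9.09) in knockouts, a narrow difference of -0.32 ± 0.06. Slc11a2, an iron transporter also called DMT1, was 6.71, 6.75, 6.81, 6.76 and 6.31 in wild types and 6.01 to 6.29 (median 6.15) in knockouts (-0.52 ± 0.11). For Slc11a2, wild type 5 was barely above the highest knockout. On the higher side Sap30, a subunit of a histone deacetylase complex, was 10.43, 10.21, 10.70, 10.30 and 10.17 in wild types and 10.65 to 11.69 (median 11.10) in knockouts (0.74 ± 0.16, adjusted p = 0.0952). Here knockout 5 (10.65) lay just under wild type 3 (10.70).

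Of all tested genes, 49 (0.272%) had every knockout above every wild type and 43 (0.239%) had every knockout below. The typical size was small: the medians were 0.29 and -0.29. Higher without overlap were Bsdc1 (0.76 ± 0.18), the transcription factor Tfcp2l1 (0.64 ± 0.15), Gnrh1 (0.55 ± 0.13), Mocs3 (0.54 ± 0.17), the immune regulator Tnfaip8l2 (0.45 ± 0.10) and Avl9 (0.45 ± 0.12). The autophagy receptor Sqstm1, also called p62, was 8.45, 8.28, 8.57, 8.58 and 8.46 in wild types and 8.63 to 9.26 (median 8.83) in knockouts (0.43 ± 0.10). Trit1, Snrnp27 and Sav1, a scaffold of the Hippo pathway, differed by 0.39 to 0.42. Lower without overlap, besides Elapor1, Gm23336, Mir669n, Cpd and Slc11a2, were Reg2 and Reg3d, both described below, and the glycosyltransferase Galnt7, which starts O-linked sugar chains (-0.78 ± 0.19). The ATP-gated channel P2rx1 (-0.69 ± 0.16), the endoplasmic reticulum (ER) chaperone Dnajc3 (-0.66 ± 0.16), Krtap4-2 (-0.41 ± 0.13), Rcbtb1 (-0.39 ± 0.09) and the microRNA-processing enzyme Dicer1 (-0.38 ± 0.13) did not overlap either. Apart from Elapor1, the limma adjusted p of the genes in this paragraph was 0.0952 to 0.465.

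The Reg proteins, small secreted lectins of acinar cells that are known to be induced by pancreatic stress, were lower in the knockouts. Reg2 was 9.62, 10.41, 8.97, 12.80 and 9.44 in wild types and 6.36 to 8.20 (median 7.30) in knockouts. The groups did not overlap, and the level was 7.92-fold lower in knockouts (-2.99 ± 0.59, adjusted p = 0.0952). Reg3b was 15.29 and 17.69 in wild types 1 and 3 and at or above 18.94 in the others, up to 19.91, and 13.68 to 16.64 (median 14.84) in knockouts. Wild type 1 lay inside the knockout range and wild type 4 was close to the ceiling (-3.08 ± 0.89, adjusted p = 0.387). Reg3d was 13.05, 13.39, 12.34, 13.37 and 12.32 in wild types and 11.36 to 12.23 (median 11.72) in knockouts, without overlap (-1.15 ± 0.32, adjusted p = 0.32). Reg3a (-1.43 ± 0.59) and Reg3g (-1.12 ± 0.42), named after their values were seen, had knockout means of 5.13 and 5.45, close to the array medians. Reg1 was at the ceiling on every P0 array, so nothing can be said of it.

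The list of zymogen granule and Reg proteins had 16 tested members, of which 13 were below 0, 1 above and 2 at the ceiling in both groups. Its median was -0.57, against 0.0054 over all tested genes, and 8 members were lower at an unadjusted p under 0.05 (3.72% of all genes were). The mean signal of the list ran from 14.37 to 15.03 in knockouts and from 15.06 to 16.10 in wild types, so all 6 knockouts were below all 5 wild types. In all settings tried the median stayed between -0.66 and -0.41. The exception above 0 was Nupr1, a small chromatin protein induced by cell stress, at 15.25, 15.50, 16.33, 15.49 and 16.37 in wild types and 16.31 to 17.18 (median 16.59) in knockouts (0.85 ± 0.21, adjusted p = 0.176). Wild types 3 and 5 reached the lower end of the knockouts.

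Acinar transcription factors were mixed. Of 14 tested members of their list, which also holds receptors for secretory hormones, 6 were above 0 and 8 below (median -0.09, or -0.18 without knockout 2). Rbpjl, the subunit of the acinar complex PTF1 that keeps enzyme genes on in mature acinar cells, was 11.84, 12.03, 10.32, 12.12 and 10.69 in wild types. In knockouts it was 9.81 to 10.64 (median 10.30; -1.17 ± 0.29, adjusted p = 0.176). Wild types 1, 2 and 4 were well above every knockout, wild type 3 was inside their range and wild type 5 was just above it. Without wild type 3 the difference was -1.44 (adjusted p = 0.0434), the single alternative of 26 in which Rbpjl passed (adjusted p of 0.0434 to 0.742). Nr5a2, a nuclear receptor that works with PTF1, was 10.38, 10.29, 9.77, 10.23 and 10.38 in wild types and 9.23 to 10.02 (median 9.81) in knockouts, again with wild type 3 in the knockout range (-0.48 ± 0.14, adjusted p = 0.375). Gata4 (-0.36 ± 0.13) and the muscarinic receptor Chrm1 (-0.18 ± 0.07) had signals near the array medians. Ptf1a itself was 0.24 ± 0.53, with knockouts from 7.40 to 11.33.

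**Figure D2:**
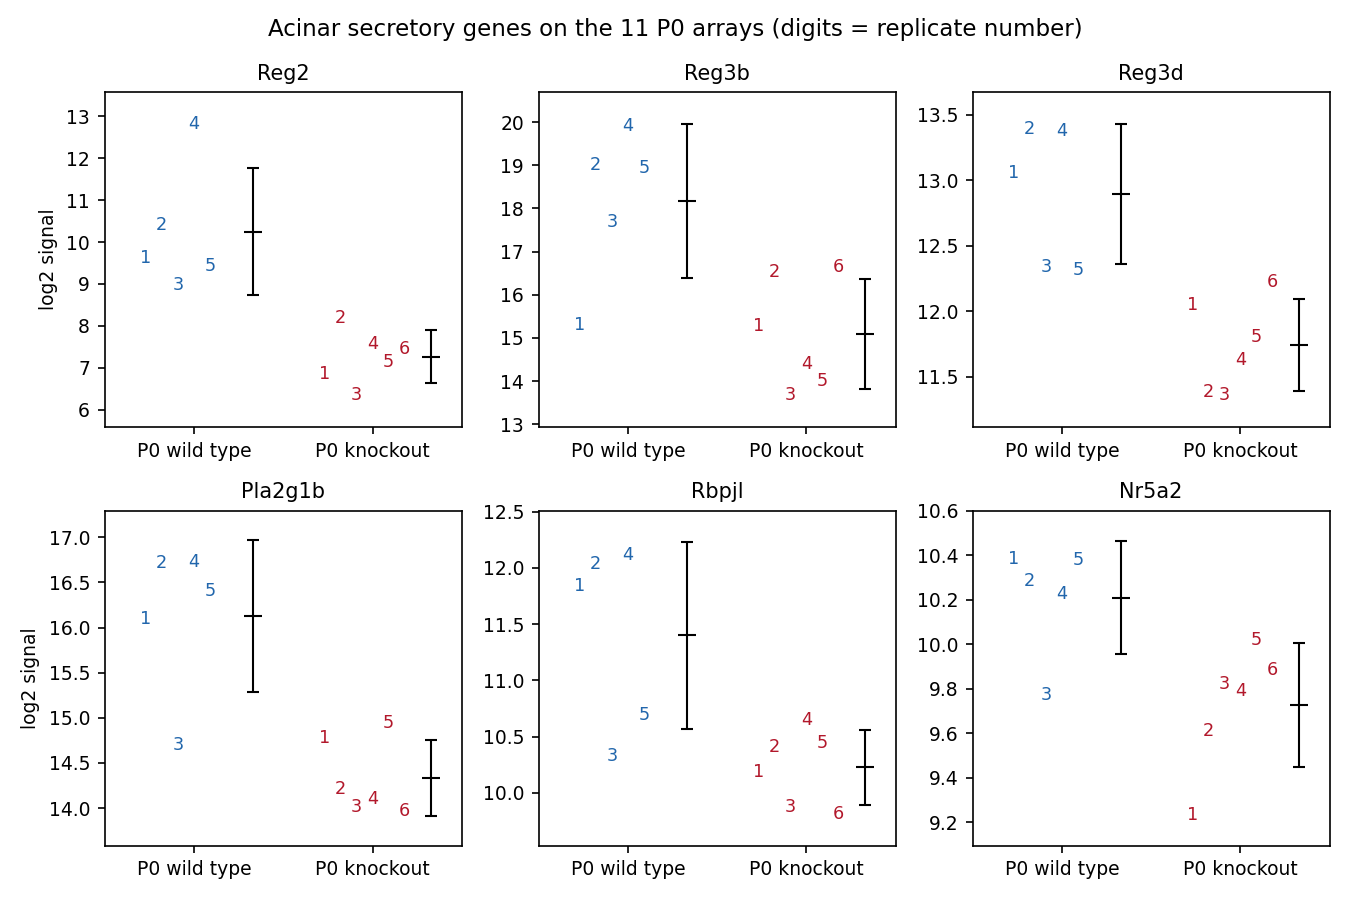
Signal (log2) of Reg2, Reg3b, Reg3d, Pla2g1b, Rbpjl and Nr5a2 on each P0 array, numbered by replicate, wild type in blue and knockout in red, with mean ± SD. Groups are separate for Reg2 and Reg3d; wild type 3 lies in the knockout range for Pla2g1b, Rbpjl and Nr5a2.

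PTF1 binds a composite of an E box (CANNTG) and a TC box (TTCCCA), and the promoters of the acinar lists were searched for it because Rbpjl and several of its acinar neighbours were among the lower genes. The composite was taken as both motifs, on either strand and in either order, not overlapping and with 4 to 20 bases between them. The window was the 250 bases before the RefSeq start of each gene in GRCm38.p6. It was present in 3.68% of 32851 windows and in 4.24% of the 27025 genes with a window. It was found in 4 of 14 zymogen granule and Reg genes (Reg1, Reg2, Reg3d and Pdia2), in 4 of 19 digestive enzyme genes (Cpa1, Ctrb1, Prss1 and Cel) and, of 8 acinar transcription factor and receptor genes with a window, in Rbpjl. A match is a run of letters and not a measured binding site. The promoters of 3 genes are printed, with the motifs in capitals, to set the gene that is a PTF1 subunit beside a Reg gene that differed and a Reg gene hidden by the ceiling. They lie at chr2:164402944-164403193 (Rbpjl), chr6:78404905-78405154 (Reg2) and chr6:78425733-78425982 (Reg1), all on the plus strand.
Rbpjl: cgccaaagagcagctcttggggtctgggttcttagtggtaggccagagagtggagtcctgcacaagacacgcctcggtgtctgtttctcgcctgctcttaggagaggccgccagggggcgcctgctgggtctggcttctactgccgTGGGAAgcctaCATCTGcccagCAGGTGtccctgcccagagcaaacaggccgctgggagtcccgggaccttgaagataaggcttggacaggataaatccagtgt
Reg2: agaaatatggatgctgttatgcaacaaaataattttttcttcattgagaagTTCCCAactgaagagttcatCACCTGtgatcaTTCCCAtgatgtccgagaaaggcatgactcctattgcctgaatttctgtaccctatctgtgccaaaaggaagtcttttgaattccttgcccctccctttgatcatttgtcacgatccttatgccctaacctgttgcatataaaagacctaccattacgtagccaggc
Reg1: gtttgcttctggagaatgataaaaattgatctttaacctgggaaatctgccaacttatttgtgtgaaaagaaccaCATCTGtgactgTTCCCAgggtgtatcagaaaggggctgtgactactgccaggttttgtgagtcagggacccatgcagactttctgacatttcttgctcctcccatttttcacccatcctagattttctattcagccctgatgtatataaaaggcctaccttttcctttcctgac
In Rbpjl the TC box is on the opposite strand (TGGGAA), with an E box 5 bases and another 16 bases from it, which makes 2 composites. Reg2 has a TC box on either side of its E box, 14 and 6 bases away, which also makes 2 composites, and Reg1 has 1 with 6 bases between the motifs. Of the other genes with the composite, Cpa1, Ctrb1, Prss1, and Cel were at the ceiling in both groups, and Pdia2 stood at -0.21 ± 0.17.

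Of the 23 digestive enzymes tested, 15 reached the ceiling on some P0 array and 16 showed no difference in either direction. Of the other 7, 6 were below 0 and 1 above. After Pla2g1b these were led by the chymotrypsin-like protease Ctrl, at 19.53, 19.59, 18.66, 19.21 and 18.89 in wild types and 17.49 to 19.02 (median 18.42) in knockouts (-0.76 ± 0.24, adjusted p = 0.416). The lipase-related protein Pnliprp2 (-0.29 ± 0.11) and the elastase Cela1 (-0.23 ± 0.15) followed. In whole-organ RNA, fewer acinar cells and less RNA per acinar cell cannot be told apart. Ductal markers had 7 of 12 members above 0 and a median of 0.06, with list means of 9.09 to 9.54 in knockouts and 9.22 to 9.57 in wild types.

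Genes of protein folding in the ER, on which acinar and beta cells depend for secretion, were split. Of 33 tested, 24 were below 0 and 9 above (median -0.16, or -0.09 without wild type 2); 5 were lower and 4 higher at an unadjusted p under 0.05. Dnajc3, a co-chaperone that also restrains the stress kinase PERK, was 14.33, 14.38, 13.55, 13.95 and 13.50 in wild types and 12.90 to 13.48 (median 13.35) in knockouts. Ero1b, the oxidoreductase that helps to form disulfide bonds in proinsulin and in enzymes, was 12.34, 12.40, 11.10, 12.32 and 11.19 in wild types and 10.41 to 11.35 (median 10.86) in knockouts (-0.97 ± 0.25, adjusted p = 0.223). Wild types 3 and 5 overlapped the knockouts for Ero1b. Dnajb11 stood at -0.46 ± 0.14. Higher was the kinase gene itself: Eif2ak3, which encodes PERK, was 10.05, 9.94, 9.89, 9.27 and 9.48 in wild types and 9.73 to 11.04 (median 10.85) in knockouts (0.96 ± 0.24, adjusted p = 0.176). Knockout 5 (9.73) was the only knockout inside the wild-type range. Ddit3, the stress factor CHOP induced downstream of PERK, stood at 0.46 ± 0.17.

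ATF4 targets and amino acid transporters, which PERK signalling can raise, had 14 of 33 members above 0. Their median was -0.09, or 0.00025 without wild type 1. Of the 33, 4 were higher and 1 lower at an unadjusted p under 0.05. Nupr1 (0.85 ± 0.21), Ddit3 (0.46 ± 0.17) and the folate enzyme Mthfd2 (0.42 ± 0.15) were on the higher side, with Slc7a8 at the other end. In the N-glycan list, to which Man1a2 belongs, 27 of 36 were below 0 (median -0.12). In it 2 were lower at an unadjusted p under 0.05 (3.72% of all genes were), Man1a2, already called, and the branching enzyme Mgat4a. Mgat4a was 9.80, 10.86, 8.28, 9.91 and 8.36 in wild types and 7.76 to 8.98 (median 8.07) in knockouts (-1.16 ± 0.37, adjusted p = 0.429), with wild types 3 and 5 among the knockouts. Mgat2 (-0.31 ± 0.15) and Uggt1 (-0.28 ± 0.14) were the next.

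Among the proteins that carry out inceptor's known function, small differences were seen. Elapor2, the closest relative of Elapor1 and named after its value was seen, stood at 0.08 ± 0.08. The clathrin adaptor subunit Ap2m1 was -0.20 ± 0.09 and clathrin heavy chain Cltc -0.30 ± 0.14 (limma adjusted p of 0.568 and 0.569), and the cargo adaptor Dab2 was -0.31 ± 0.16. The list of 21 genes for inceptor and receptor endocytosis had 9 members above 0 and a median of -0.0046.

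The insulin receptor gene Insr is not analysed here because it has no probe set with a single symbol. Of 18 tested genes for insulin and IGF receptors and their adaptors, 13 were above 0 (median 0.04) and 3 were higher at an unadjusted p under 0.05. Igf1r, the IGF1 receptor, was 8.57, 8.56, 8.66, 8.29 and 9.13 in wild types and 8.46 to 8.86 (median 8.74) in knockouts, a difference of 0.05 ± 0.12. Irs2, an insulin receptor substrate that FOXO factors raise, was 9.90, 10.04, 10.57, 9.46 and 10.77 in wild types and 10.43, 12.62, 11.19, 12.26, 10.48 and 9.98 in knockouts. The knockouts spread widely, from within the wild-type range in arrays 1, 5 and 6 to far above it in arrays 2 and 4 (1.01 ± 0.48, adjusted p = 0.569). Irs1 was -0.24 ± 0.19, the exchange factor Sos1 0.21 ± 0.09 and the ubiquitin ligase Cblb 0.32 ± 0.14.

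Downstream, the 28 tested genes of the PI3K, AKT and mTOR pathway had a median of 0.0063, with 16 above 0 and 5 higher at an unadjusted p under 0.05. Tsc1, Foxo3, Phlpp1 and Pdpk1 were among them. Tsc1, which holds back mTORC1, was 6.49, 6.45, 6.82, 6.54 and 6.79 in wild types and 6.78 to 7.02 (median 6.92) in knockouts (0.30 ± 0.07, adjusted p = 0.137). Foxo3 was 7.31, 7.39, 7.76, 6.63 and 7.97 in wild types and 7.61 to 8.56 (median 7.89) in knockouts (0.61 ± 0.20, adjusted p = 0.44). The AKT phosphatase Phlpp1 stood at 0.20 ± 0.09 and the AKT-activating kinase Pdpk1 at 0.16 ± 0.07. Wild types 3 and 5 overlapped the knockouts for Foxo3 and reached them for Tsc1.

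FOXO and starvation targets were above 0 in 20 of 25 cases (median 0.30), with 8 higher and 1 lower at an unadjusted p under 0.05. Gabarapl1, an autophagosome protein, was 6.45, 5.85, 7.43, 5.86 and 7.84 in wild types and 6.88 to 8.52 (median 8.23) in knockouts (1.23 ± 0.36, adjusted p = 0.395). Trp53inp1 stood at 1.59 ± 0.55 and Ccng2 at 0.21 ± 0.08, while Sod2, a mitochondrial dismutase, was -0.26 ± 0.08. The list mean was 7.95, 8.76, 8.39, 8.20, 7.76 and 8.70 in knockouts 1 to 6 and 7.56, 7.58, 8.36, 7.44 and 8.28 in wild types 1 to 5. Wild types 3 and 5 were level with the knockouts, and wild types 1, 2 and 4 were below all of them.

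Glucocorticoid-responsive genes, which also answer to fasting and birth stress and share Ddit4, Klf15, Tsc22d3 and Pdk4 with the FOXO list, were above 0 in 16 of 18 cases (median 0.53). Of these, 8 were higher at an unadjusted p under 0.05. The metallothionein Mt1 (0.58 ± 0.20), Cebpb (0.29 ± 0.12), Klf9 (0.70 ± 0.28) and Cebpd (0.40 ± 0.16) led the list. Mt1 sat at 16.13 on knockouts 1, 3 and 6 and wild types 3 and 5, a plateau that blurs how far the groups differed. The mean of the list was 8.94, 9.77, 9.42, 8.77, 8.62 and 9.70 in knockouts and 8.25, 8.32, 9.28, 7.84 and 9.58 in wild types. Wild types 3 and 5 were again among the knockouts, and without wild type 4 the median was 0.31. Heat shock and immediate early genes had 14 of 17 members above 0 (median 0.19), among them the mRNA-decay factor Zfp36 (1.04 ± 0.36) and Btg2 (1.17 ± 0.46), where knockout 2 (10.62) stood apart.

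Liver markers were higher in knockouts too. All 19 tested were above 0 (median 0.96), of which 3 were higher at an unadjusted p under 0.05. Their mean was 9.63, 11.42, 9.96, 9.97, 8.66 and 12.03 in knockouts and 8.08, 9.06, 10.49, 10.38 and 7.0 in wild types. Afp, the fetal albumin-like protein, ranged from 9.16 to 14.86 in knockouts and 5.66 to 11.96 in wild types (2.78 ± 1.25, adjusted p = 0.568). With the liver, intestinal and skeletal muscle means as covariates the median of liver markers was -0.02, that of FOXO targets 0.22 and that of glucocorticoid genes 0.38. Knockouts 4 and 6 and the 4 E18.5 arrays with high intestinal or muscle means were also left out, a choice not made on liver markers. The liver median was then 0.59, and the FOXO and glucocorticoid medians were 0.21 and 0.55.

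**Figure D3:**
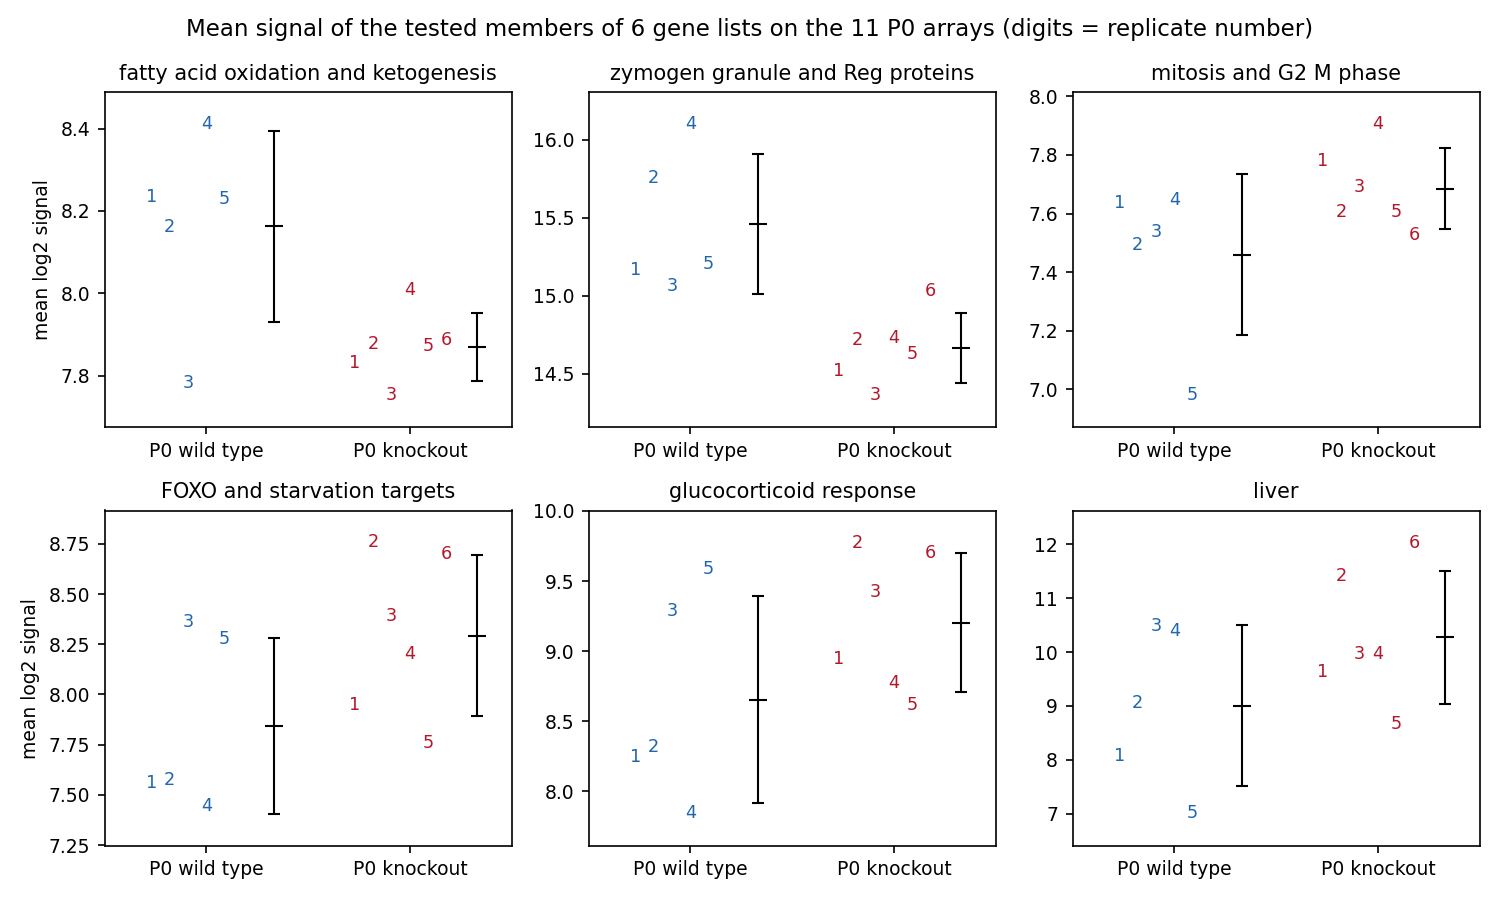
Mean log2 signal of the tested members of 6 gene lists on each P0 array, numbered by replicate, wild type in blue and knockout in red, with mean ± SD over arrays. All knockouts are below all wild types for zymogen granule and Reg proteins; wild type 3 joins the knockouts for fatty acid oxidation, wild types 3 and 5 do so for the FOXO and glucocorticoid lists, and wild type 5 alone is low for mitosis.

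Fatty acid oxidation is the pathway newborns rely on between feeds. Of 25 tested genes of oxidation and ketogenesis, 23 were below 0 (median -0.30) and 9 were lower at an unadjusted p under 0.05. Hadha, a subunit of the mitochondrial trifunctional protein, was 10.49, 10.63, 9.43, 10.36 and 10.31 in wild types and 9.43 to 9.83 (median 9.65) in knockouts (-0.63 ± 0.16, adjusted p = 0.229). Wild type 3 was level with the lowest knockout and the other wild types were above every knockout; without wild type 3 the difference was -0.83 (adjusted p = 0.00145), the single alternative of 26 in which Hadha passed (adjusted p of 0.00145 to 0.749). The long-chain dehydrogenase Acadl was 11.50, 11.61, 10.66, 12.41 and 11.45 in wild types and 10.41 to 11.17 (median 10.82) in knockouts (-0.70 ± 0.23), in the same arrangement. The carnitine carrier Slc25a20 stood at -0.57 ± 0.19. The list mean was 7.75 to 8.01 in knockouts and 8.23, 8.16, 7.78, 8.41 and 8.23 in wild types. Its median was -0.27 with the marker means as covariates and stayed between -0.37 and -0.19 in all settings tried, the latter without wild type 4.

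Of 36 respiratory chain genes, 30 were below 0, by little (median -0.10, or -0.05 without wild type 1), with Sdha at -0.19 ± 0.08. Mitochondrial ribosome genes were evenly divided, 17 above 0 of 32. Cholesterol synthesis genes were above 0 in 18 of 22 cases (median 0.16, or 0.11 without wild type 2) with 3 higher at an unadjusted p under 0.05, led by Fdps, a farnesyl diphosphate synthase. Fdps was 9.17, 7.77, 9.14, 8.02 and 7.11 in wild types and 8.68 to 9.87 (median 9.39) in knockouts (1.12 ± 0.34, adjusted p = 0.402), so wild types 1 and 3 lay inside the knockout range. Glycolysis and hypoxia genes had a median of 0.04, with the mitophagy receptor Bnip3 at 0.86 ± 0.39. In autophagy and lysosome genes 19 of 33 were above 0 (median 0.06), with 6 higher and 2 lower at an unadjusted p under 0.05.

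The cell cycle lists differed in sign. Mitosis genes were above 0 in 31 of 32 cases (median 0.21), with 8 higher at an unadjusted p under 0.05. Ube2c, which primes mitotic cyclins for destruction, was 10.99, 10.88, 10.80, 10.68 and 10.06 in wild types and 10.99 to 11.54 (median 11.23) in knockouts (0.57 ± 0.15, adjusted p = 0.231). Wild type 5 was the lowest and wild type 1 met the lowest knockout. Mki67, a proliferation marker, stood at 0.43 ± 0.24, with 10.18 in wild type 5 against 11.16 to 11.47 in the other wild types. The mean of the list in that array was 6.98, against 7.49 to 7.65 in the other wild types and 7.53 to 7.90 in knockouts. Without wild type 5 the median was 0.11.

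Of 28 S-phase genes, 24 were below 0 (median -0.14), and 4 of these were lower at an unadjusted p under 0.05, including the helicase subunits Mcm3 (-0.56 ± 0.21), Mcm6 (-0.44 ± 0.17) and Mcm4 (-0.38 ± 0.17). Wild type 5 was low here as well, with a list mean of 6.64 against 6.75 to 7.10 in knockouts and 6.90 to 7.36 in the other wild types. The median was -0.21 without wild type 5 and -0.08 without wild type 4. The cyclin Ccnd2 was -0.79 ± 0.32 and the inhibitor Cdkn1a 0.63 ± 0.39, neither passing (limma adjusted p of 0.538 and 0.654).

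Beta-cell genes had 13 of 19 members above 0 and a median of 0.11, or 0.04 without knockout 2. Iapp, the amyloid peptide released with insulin, stood at 0.43 ± 0.23, Nkx6-1 at 0.21 ± 0.12 and Pdx1, whose signal was at the array median, at -0.14 ± 0.11. The incretin receptor Glp1r, also expressed outside beta cells, was 6.42, 7.79, 5.57, 7.75 and 5.87 in wild types and 5.52 to 6.06 (median 5.77) in knockouts (-0.92 ± 0.33, adjusted p = 0.482), with wild types 3 and 5 among the knockouts. Ins2 was 18.50 in knockout 6 and 18.58 on the other arrays, a plateau that hides differences. The genes Ins1 and Neurod1, which have no probe set with a single symbol, and Mafa, which did not pass the signal filter, are not analysed here. Other islet hormones were close between groups: glucagon (Gcg) 0.23 ± 0.14, somatostatin (Sst) 0.22 ± 0.21, ghrelin (Ghrl) 0.23 ± 0.18 and pancreatic polypeptide (Ppy) -0.46 ± 0.33, with adjusted p of 0.65 to 0.775.

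Genes of neuroendocrine granules were above 0 in 21 of 27 cases (median 0.11). Pcsk1n, an inhibitor of prohormone convertase, was higher (0.19 ± 0.08, limma adjusted p = 0.554). Its groups barely failed to overlap, with the lowest knockout at 6.039 and the highest wild type at 6.035. Nnat stood at 0.44 ± 0.19. The neuropeptide gene Npy was 10.02, 9.33, 7.15, 6.64 and 6.62 in wild types and 10.76, 10.93, 11.08, 11.24, 8.67 and 11.73 in knockouts (2.78 ± 1.05, adjusted p = 0.514). Only knockout 5 lay within the wild-type range. Markers of neurons and Schwann cells were higher in knockouts as well: 16 of 17 were above 0 (median 0.47, or 0.23 without knockouts 4 and 6 and the same E18.5 arrays), with list means of 6.69, 6.44, 6.78, 7.29, 6.35 and 7.21 in knockouts and 6.83, 6.18, 5.96, 6.27 and 6.30 in wild types. The catecholamine enzyme Th, measured in nerves and adrenal cells, was 5.08 in knockout 5 and 5.81 to 6.83 in the other knockouts, and ranged from 5.16 to 6.36 in wild types. The part of nerve RNA in the Npy difference was not tested.

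Smooth muscle and pericyte markers were below 0 in 10 of 10 cases (median -0.84), though none had an unadjusted p under 0.05. Their mean ran from 8.17 to 11.92 in knockouts and from 9.11 to 11.45 in wild types. Acta2, smooth muscle actin, was -1.09 ± 0.84 and Actg2, its enteric form, -1.44 ± 1.23. The median was -1.42 without wild type 3, -0.27 without knockout 2 and -0.25 with the marker means as covariates. Mesenchyme and matrix, endothelial, macrophage and lymphocyte markers had medians between -0.07 and -0.018. Whether the amount of smooth muscle in the dissected pieces bears on other differences was not tested.

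**Figure D4:**
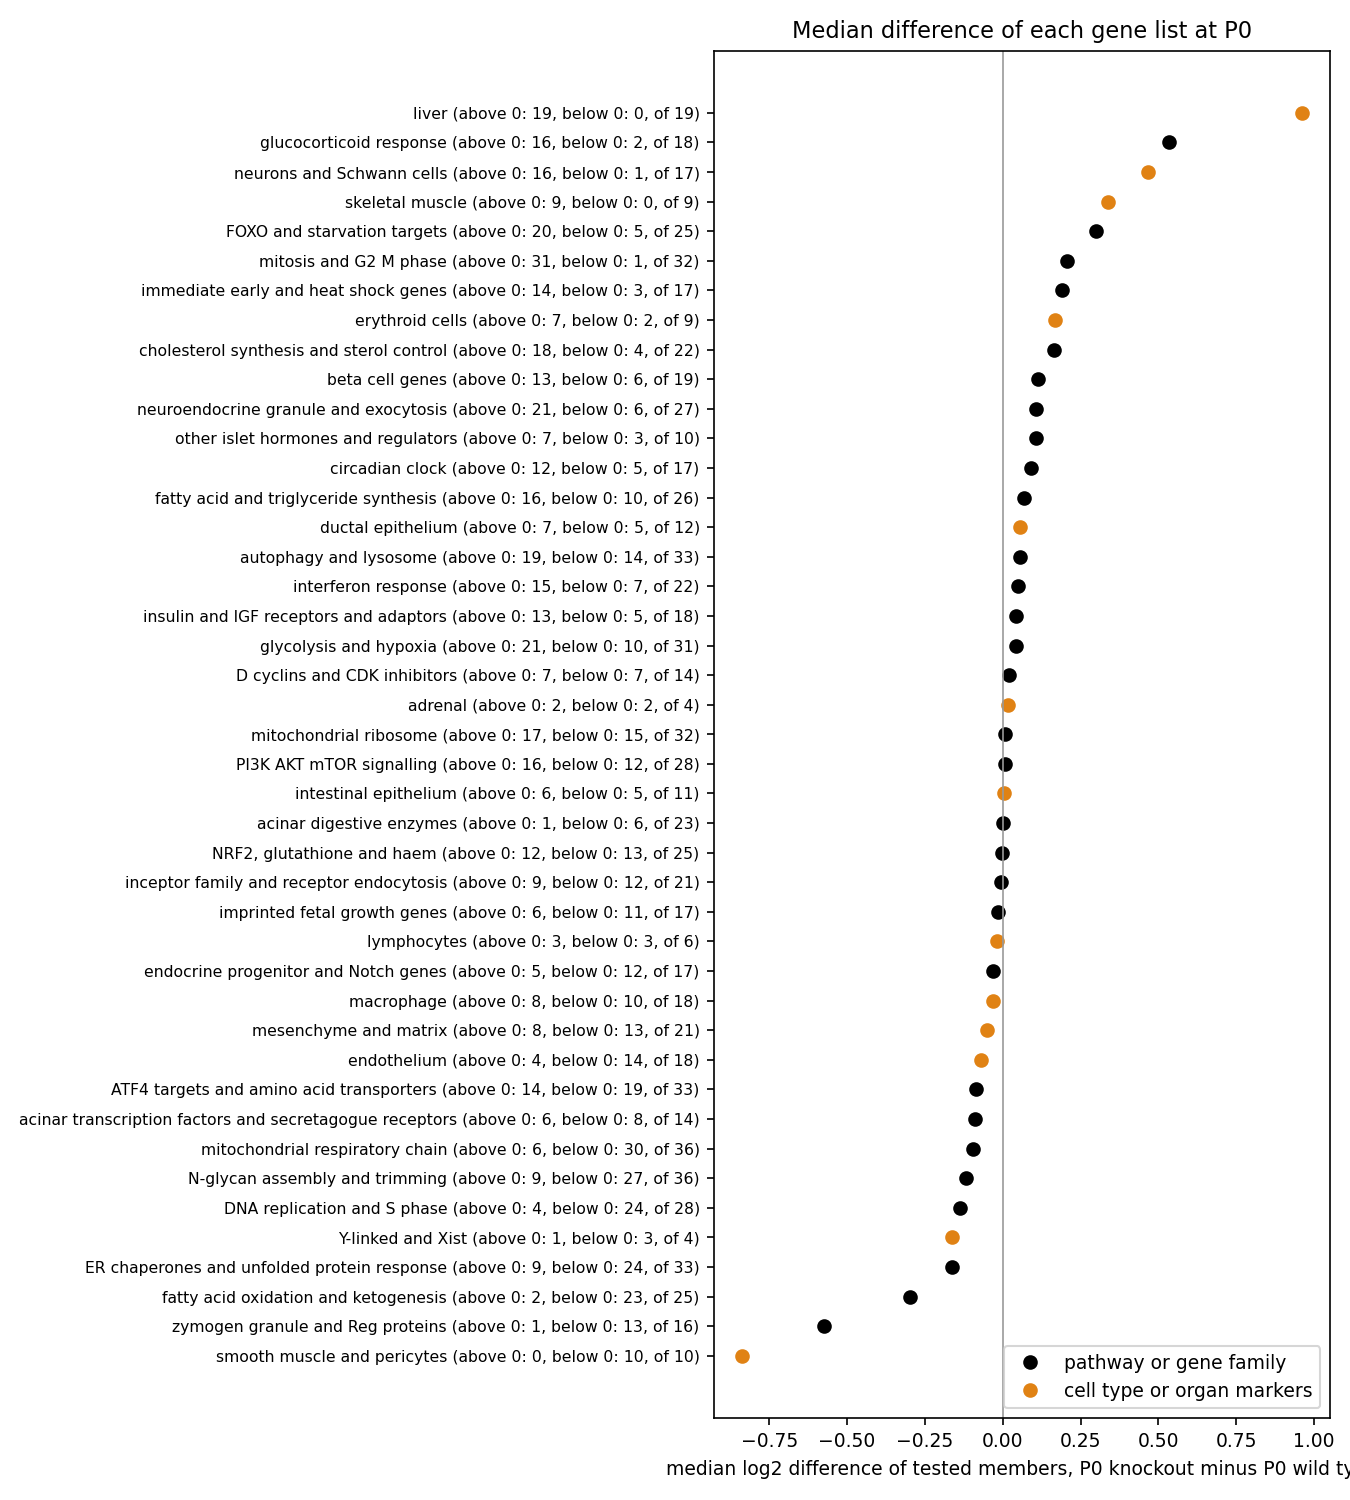
Median log2 difference (P0 knockout minus P0 wild type) of the tested members of each gene list with at least 4 tested members, with the counts of members above and below 0. Black points are pathway and gene family lists and orange points markers of cell types or organs; the medians run from -0.84 for smooth muscle to 0.96 for liver.

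The genotype effect at P0 was then tested against that at E18.5. The pups had been starved for 5 h and the mothers of the embryos for 2 h. The running numbers of the samples also split by age, 1 to 12 at P0 and 13 to 22 at E18.5. Age, fasting and running number therefore cannot be told apart here. No gene was called for this difference by limma at an adjusted p under 0.05 or 0.10 (0%), while 1256 genes (6.98%) had an unadjusted p under 0.05. At E18.5 alone 2 genes (0.0111%) were called, both lower. Elapor1 (-5.49 at P0, -5.55 at E18.5) and Man1a2 (-1.71 and -2.25) were lower at both ages. Without P0 wild type 1, 34 genes were called for the difference between ages, 33 of them in the set with identical values, and with identical genes counted once there were 0. Reg2 stood at -2.99 ± 0.59 at P0 and -0.51 ± 0.65 at E18.5, Rbpjl at -1.17 ± 0.29 and 0.18 ± 0.32, and Hadha at -0.63 ± 0.16 and 0.06 ± 0.18. The adjusted p of these 3 differences between ages was 0.63, 0.58 and 0.62, so none is called different between the ages. Predicted genes, clones, small RNAs and sensory receptors were left out of the ranking that follows, though some had p-values as small. In it the smallest p-values of this test belonged, on the higher side, to Hoxc4 (0.27 at P0 and -0.18 at E18.5), the cytoskeletal linker Dst (0.31 and -0.21) and Atxn7l1os2 (0.31 and -0.34). On the lower side they belonged to Cpd (-0.32 and 0.10), Shisal1 (-0.22 and 0.18) and the mitochondrial ADP/ATP carrier Slc25a5 (-0.40 and 0.42). All 6 had an adjusted p of 0.26. Whether this value rests on the genes with identical values was not tested.

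The genotype difference at E18.5 was not used to pick the genes without overlap at P0. The E18.5 arrays did enter the signal filter and the choice of probe set. Of the 49 genes higher in every P0 knockout, 27 (55.1%) were also above 0 at E18.5, where 56.4% of all tested genes were. Of the 43 lower genes, 16 (37.2%) were below 0 at E18.5, against 42.9% of all tested genes. Elapor1 and Gm23336, which lies inside its span, are among these 16. Among the lists, mitosis genes had medians of 0.21 at P0 and 0.18 at E18.5, each with 31 of 32 members above 0. Cholesterol synthesis genes had a median of 0.16 at both ages. The zymogen and Reg list had -0.57 and 0, fatty acid oxidation -0.30 and 0.17, FOXO targets 0.30 and -0.07, and glucocorticoid genes 0.53 and -0.07. Heat shock and immediate early genes had 0.19 and -0.19. Marker lists also changed sign: liver had 0.96 and -0.355, and neurons and Schwann cells 0.47 and -0.48. Smooth muscle markers (-0.84 and -0.36) and skeletal muscle markers (0.34 and 0.22) had the same sign at both ages. No test of these list differences between ages was made.

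**Figure D5:**
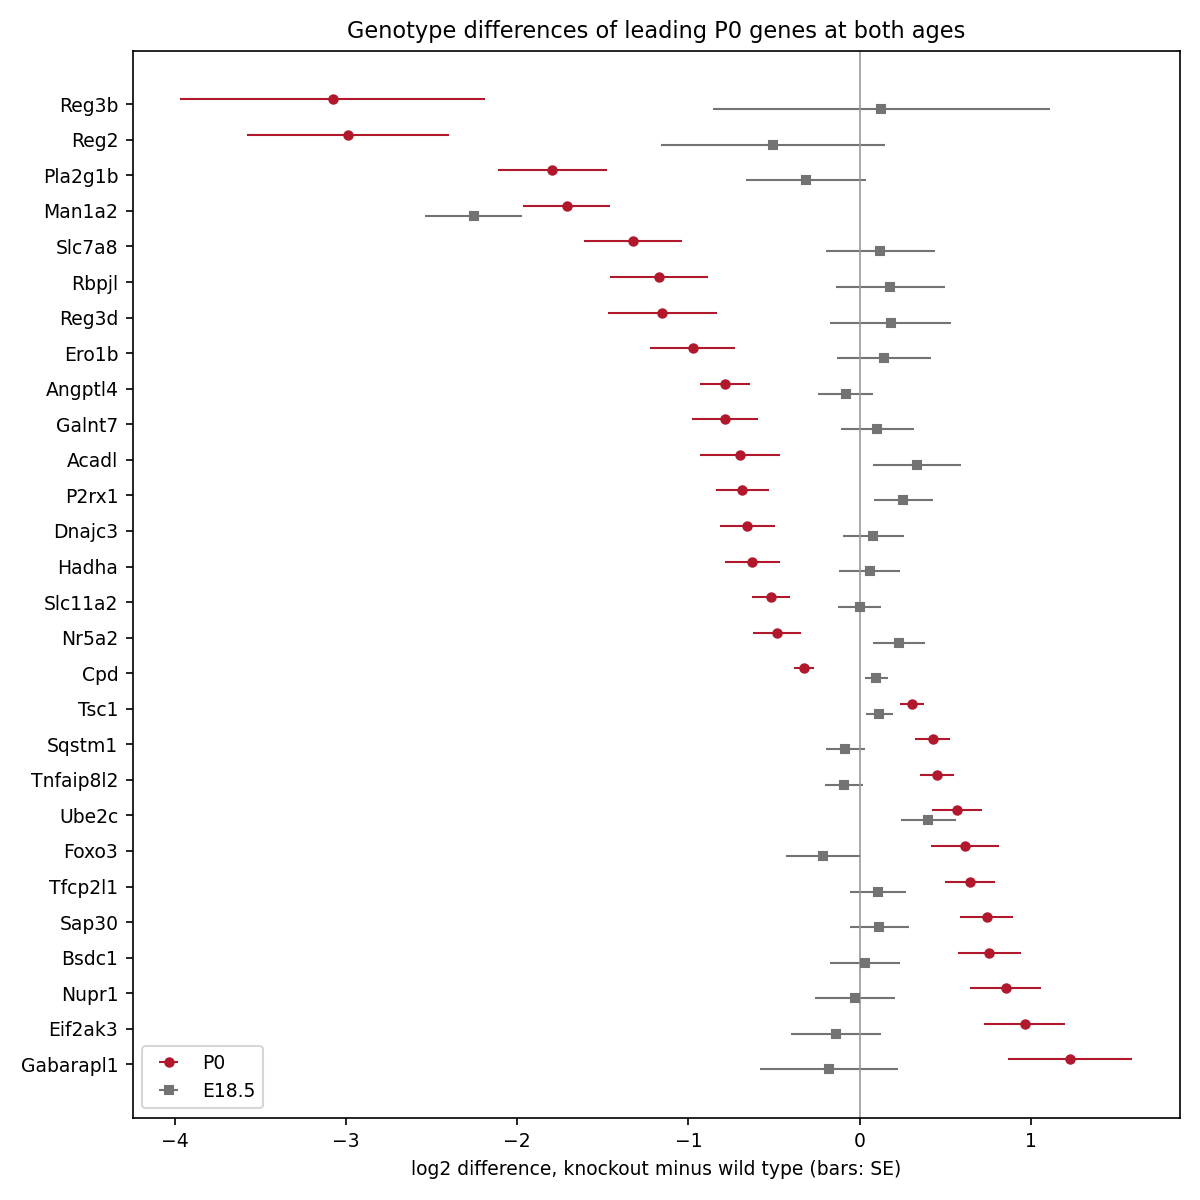
Log2 difference (knockout minus wild type, bars SE) of 28 genes named in the text, at P0 (red circles) and at E18.5 (grey squares). Man1a2 is lower at both ages, while most other genes lie closer to 0 at E18.5 than at P0. The genes were picked by their P0 values, which by itself favours smaller differences at E18.5. No gene passed the test of the difference between ages.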

How the data were processed

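The deposited values are log2 signals made by the authors with RMA (background correction, normalization between arrays and summary per probe set) in Affymetrix Expression Console 1.4.1.46, per the submitters' processing notes. RNA was extracted with an RNeasy Lipid Tissue Kit, amplified with Ovation PicoSL WTA V2 and labelled with Encore Biotin, per the labels' protocols. The genome build of the array is not given in the sources used here. RMA makes array distributions alike, so a change common to most genes would not be seen, and the number of arrays limits the precision.

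Of 65956 probe sets, the 30604 with exactly 1 gene symbol were used, with symbols updated through RefSeq tables of GRCm38.p6. A gene was measured by its probe set with the highest mean, and genes above their array's median on 4 or more arrays were kept. Group means of all 20 arrays were fitted with limma 3.58.1 in R 4.3.3, and p-values were adjusted by the Benjamini-Hochberg method over 17993 genes. In data simulated with known changes for the P0 contrast, 45.2% of changes of 0.5, 83.3% of 1 and 98.2% of 2 (log2) were recovered. The simulation changed 73, 72 and 55 genes by these sizes, in normal noise drawn independently for each gene. It held no array shifts shared by many genes and no ceiling, so these shares are not the power in the measured data. There, 155 tested genes differed by 1 or more and 2 were called. Errors beside differences are standard errors of the fit.

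The comparison, the 30 pathway lists, the 15 marker lists and the tests were chosen with earlier results of these data known. Genes were named by a rule: Elapor1; genes past adjusted p of 0.05, or 0.10 as not passing; the 10 with the largest differences without overlap in each direction; a short list of islet, insulin signalling and growth genes; up to 4 members of each list with the smallest p; the smallest p of the difference between ages; and neighbours on chromosome 3 with an unadjusted p under 0.01. Predicted genes and small RNAs are counted but mostly not named. Alternatives changed the filter, normalization, moderation, array weights, arrays fitted, probe sets, replicate block and single arrays, or added running number as a covariate. Leaving out arrays whose mean of intestinal or of muscle markers was above 7, adding marker means as covariates and counting identical genes once, also at an adjusted p of 0.10 and without single arrays, were chosen after seeing the data.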

Additional observations from a re-analysis of the deposited data

Results flagged for a closer look

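Single arrays stood apart from the rest of their group in 31 of 414 groups of values examined (7.5%). The rule flags about 1 in 20 for independent normal values. The genes examined were picked from these same arrays, share lists, and include Ins2 on its plateau, so the 2 rates cannot be compared. In the following an array is named with its log2 signal. Knockout 5 stood apart for Man1a2 (8.4, above the other knockouts), Eif2ak3 (9.73) and Npy (8.67), for both of the latter below the other knockouts. Other knockouts stood apart for Ins2 (knockout 6, 18.5), Gcg (knockout 1, 17.27), Cela1 (knockout 3, 18.5) and Btg2 (knockout 2, 10.62).

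Wild type 3 was the lowest wild type for Nr5a2 (9.77), Hadha (9.43), Mylk (6.57) and Actg2 (13.66) and stood apart for Sox9 (7.34). It also had the lowest mean of acinar transcription factors (7.84) and of smooth muscle markers (9.11). Wild type 5 stood apart for Slc11a2 (6.31), Mki67 (10.18), Per3 (5.74) and Hlf (5.85), and in the means of mitosis genes (6.98) and of endocrine progenitor and Notch genes (6.83). Wild type 4 was lowest for Tnfaip8l2 (5.28), Avl9 (7.84), Sav1 (9.14) and Dst (8.05), all genes higher in knockouts without overlap. Wild type 2 stood apart for Gnrh1 (4.84) and Isg15 (9.01).

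In list means, knockout 2 was highest for insulin and IGF receptors and adaptors (7.44), knockout 6 for intestinal epithelium (7.28) and knockout 4 for skeletal muscle (8.38). Wild type 1 was highest among wild types for skeletal muscle (6.45) and lowest for endothelium (6.92).

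A probe set without a gene symbol, outside the genes tested and by its name of chromosome 3 as Elapor1 and Man1a2 are, was lower in P0 knockouts by -2.94 (mean 5.54 against 8.47 in wild types). Its limma adjusted p was 0.000171 over all probe sets above the filter, and at E18.5 it stood at -3.22.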

How the results depend on the processing

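Elapor1 was called in every alternative run, between -5.65 and -5.38, and no gene other than Elapor1 and Man1a2 was called when the filter, normalization, moderation or choice of probe sets was changed. A single gene was called with array weights (1 gene; Man1a2 -1.63, limma adjusted p = 0.0631), with the 11 P0 arrays fitted alone (1; -1.71, 0.467), with the replicate block (1; -1.70, 0.186), without the arrays of high intestinal or muscle markers (1; -1.59, 0.691) and with marker means as covariates (1; -1.43, 0.146). At an adjusted p under 0.10 there were 43 genes. Leaving out each array in turn gave 1 to 45 genes called, -5.61 to -5.38 for Elapor1, -1.95 to -1.57 for Man1a2 and 0 to 34 genes for the difference between ages. Genes higher without overlap numbered 69 to 154 and genes lower without overlap 60 to 118 in those runs, since fewer arrays overlap less. Lower genes without overlap numbered 104 with no filter, where 30063 genes were tested. Higher ones numbered 32 after another quantile normalization, and the cause was not tested. Without the marker-rich arrays there were 151 higher and 90 lower. The sign turned for Ins2, which is on a plateau (0.019 after quantile normalization, 0.0023 after cyclic loess). It also turned in single runs for Ptf1a (-0.21 to 0.58 over runs without 1 array) and Igf1r (-0.037 to 0.17). Of 13 cases in which a named gene passed 0.05 only in an alternative, 5 came without knockout 1, 2 without wild type 1 and 6 without wild type 3. With genes of identical values counted once, those without knockout 1 or wild type 1 did not pass.

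Whether the replicate numbers pair the arrays was not settled. Deviations of same-numbered knockouts and wild types correlated at 0.04, 0.041, 0.116, 0.245 and -0.031, and those of arrays with different numbers at -0.276 to 0.19. The ceiling hides differences among the most abundant acinar genes, and signals near the array median, about 4.89, have uncertain fold changes.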
